A study of Mus musculus with 4 samples.

Results

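The 7 genes described here encode acid hydrolases of the lysosome that take sugars off glycans: the sialidase Neu1, the β-galactosidase Glb1, the β-hexosaminidase α-subunit Hexa, the α-galactosidase Gla, the α-mannosidase Man2b1, the β-glucuronidase Gusb and the α-fucosidase Fuca1. They were chosen by name, as lysosomal enzymes able to act on the glycans of milk, with earlier results of these data known. They were 7 of 32227 features in the deposited matrices, and each of the 7 had UMIs in the kept cells of all 4 libraries.

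Milk carries free oligosaccharides, glycoproteins and glycolipids whose chains end in sialic acid, fucose and galactose and are built on N-acetylglucosamine and mannose. Enterocytes of the suckling small intestine take up luminal protein by endocytosis and deliver it to large lysosomal vacuoles, where proteases cut the protein and exoglycosidases take the glycan chains apart one terminal sugar at a time. Lysosomal glycosidases are made as glycoproteins, receive a mannose 6-phosphate tag in the Golgi, and work best at acid pH, and several of them need a partner or activator protein.

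Epithelium was taken from the jejunum and the ileum of 2 wild-type (WT) mice at postnatal day 6 (P6), before weaning. Both regions came from the same animal, as segments about 2 cm long, freed with EDTA and dispase, and each was barcoded by PIP-Seq, a particle-templated emulsion method that counts the 3′ ends of RNA with unique molecular identifiers (UMIs). There was 1 library for each region and mouse, so that ileum and jejunum each had 2 libraries, called replicate 1 (mouse 1, batch 1) and replicate 2 (mouse 2, batch 2). No group carried a treatment or an engineered allele, and mouse, batch and labelled sex cannot be told apart.

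The study's limits on genes and mitochondrial reads left 30520 of 36202 called cells. The median was 12047 and 10915 UMIs per kept cell in the ileal libraries and 4689 and 5882.5 in the jejunal ones, with median mitochondrial shares of 3.61% and 3.74% against 6.37% and 9.94%. Pairs of libraries shared at most 1 barcode. Sex-linked genes went against the sex labels in all 4 libraries: in mouse 1, whose label is male, Xist stood at 575 and 466 CPM (UMIs of a gene per 1000000 UMIs of the library) and the Y-linked Kdm5d at 0.506 and 0.850 CPM, and in mouse 2, whose label is female, Xist stood at 0.706 and 0.906 CPM and Kdm5d at 17.6 and 12.9 CPM. Sex entered no comparison. Clusters were named from marker genes. The enterocyte-like class held 6581, 7745, 8144 and 4910 cells in ileum 1, ileum 2, jejunum 1 and jejunum 2, or 90.2%, 91.1%, 90.5% and 85.8% of the kept cells, and the stem/progenitor-like class held 480, 496, 496 and 437.

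RefSeq gives 1 promoter window for each of the 7 genes. The 250 bases before the transcription start are shown for Gla, Glb1 and Hexa, because Gla and Glb1 were the only members of the 7 with the letters CACGTG in that window, the core of the CLEAR element bound by the lysosomal regulator TFEB, and because Hexa showed the largest regional difference of the 7 in enterocyte-like cells. Each is written from 5′ to 3′ on the strand of the gene (RefSeq, build GRCm38.p6, while the deposited files were aligned to GRCm39), with CACGTG in capitals.
Gla, minus strand, chrX:134601006-134601255: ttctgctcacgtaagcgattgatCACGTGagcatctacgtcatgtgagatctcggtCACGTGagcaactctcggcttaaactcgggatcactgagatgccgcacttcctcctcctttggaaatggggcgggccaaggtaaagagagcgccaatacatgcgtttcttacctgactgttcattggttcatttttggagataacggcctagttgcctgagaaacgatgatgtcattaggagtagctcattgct
Glb1, plus strand, chr9:114400828-114401077: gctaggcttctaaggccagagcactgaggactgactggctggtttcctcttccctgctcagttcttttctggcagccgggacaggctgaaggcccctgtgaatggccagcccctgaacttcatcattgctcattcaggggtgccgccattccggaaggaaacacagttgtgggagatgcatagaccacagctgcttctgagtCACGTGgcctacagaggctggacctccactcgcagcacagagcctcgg
Hexa, plus strand, chr9:59539290-59539539: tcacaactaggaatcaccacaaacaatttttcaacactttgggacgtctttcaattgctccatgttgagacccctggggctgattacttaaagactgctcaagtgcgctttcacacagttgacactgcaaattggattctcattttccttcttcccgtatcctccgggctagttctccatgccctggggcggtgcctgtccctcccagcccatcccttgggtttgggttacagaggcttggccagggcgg
Gla had 2 such matches, the first base of which lay 227 and 194 bases before the start, and Glb1 had 1, at 48 bases before the start. The motif reads the same on both strands, and 6.04% of the 32526 distinct promoter windows of this length held it. The longer form TCACGTG, searched on both strands and containing the shorter one, was in the same 2 members and in 3.16% of all windows. These are matches of letters and not measured binding sites.

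In enterocyte-like cells, Hexa and Gla rose in the ileum over the jejunum, and the other 5 genes did not pass the test, although all 7 had higher CPM in both ileal libraries than in both jejunal ones. Here CPM were taken relative to the UMIs summed over the enterocyte-like cells of a library. Fold changes are on the log2 scale from edgeR's quasi-likelihood test after TMM scaling, ileum over jejunum, with 2 libraries per region, and p-values are adjusted by Benjamini-Hochberg over 19666 tested genes. Among those genes 4.08% were called higher in ileum, and 38% had CPM in both ileal libraries above both jejunal ones, so that the lack of overlap alone was common.

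**Figure D1:**
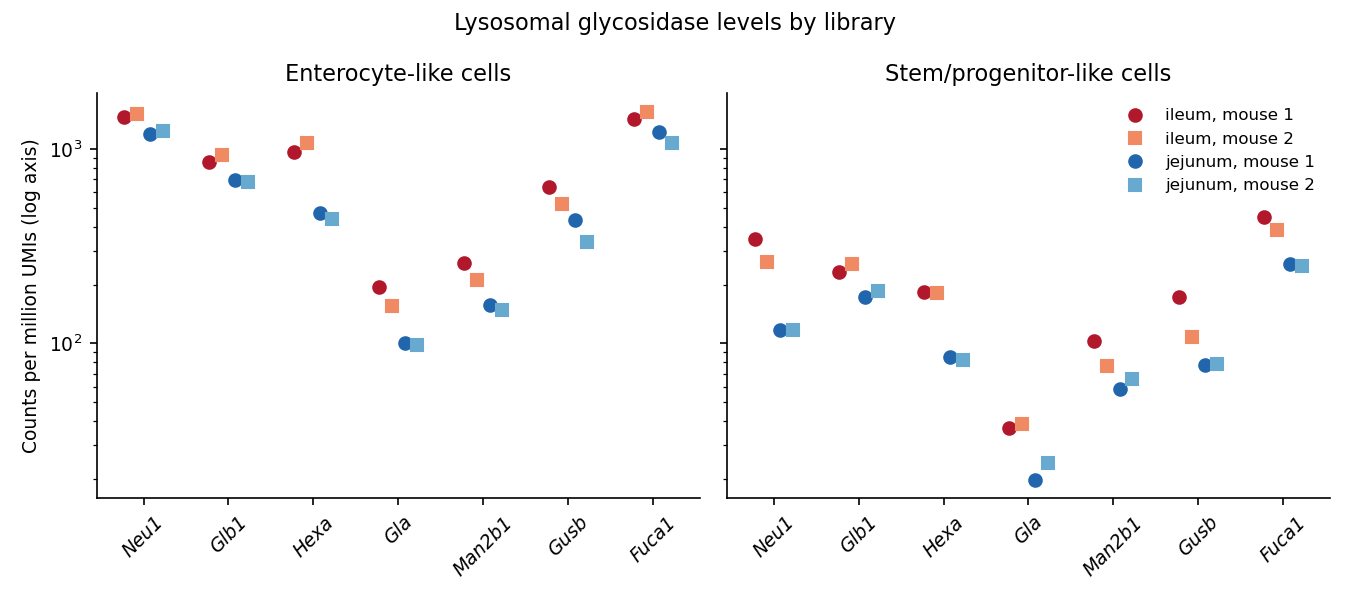
Level of each of the 7 genes in CPM (log axis) in enterocyte-like cells (left) and stem/progenitor-like cells (right). Each point is 1 library, red for ileum and blue for jejunum, with circles for mouse 1 and squares for mouse 2; for each gene and class both red points lie above both blue ones.

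Hexa encodes the α-subunit of β-hexosaminidase A, which removes terminal N-acetylhexosamines. It stood at 971 and 1074 CPM in the ileal libraries and at 470 and 438 CPM in the jejunal libraries. Within a mouse this was 2.07 and 2.45 times higher in ileum, and the fitted log2 fold change was 1.06 ± 0.15 (SE; adjusted p = 0.0266, edgeR). It was the widest regional gap of the 7. Gla, which removes terminal α-linked galactose, stood at 195 and 156 CPM in ileum and 101 and 97.8 CPM in jejunum. The ileal level was 1.93 times the jejunal one in mouse 1 and 1.60 times in mouse 2, with a log2 fold change of 0.70 ± 0.14 (SE; adjusted p = 0.0486, edgeR). Gla lay just inside the threshold, and its call was lost without any 1 of the 4 libraries (adjusted p from 0.0598 to 0.1504, edgeR). The call of Hexa was lost without jejunum replicate 2 (log2 fold change 1.06, adjusted p = 0.0542, edgeR).

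Man2b1, which trims mannose from N-linked glycan fragments, stood at 260 and 212 CPM in ileum against 157 and 149 CPM in jejunum (log2 fold change 0.50 ± 0.14 SE; adjusted p = 0.0891, edgeR). Gusb, which removes glucuronic acid from glycosaminoglycan ends, stood at 641 and 521 CPM against 433 and 332 CPM (0.48 ± 0.17 SE; adjusted p = 0.139, edgeR). Neither difference passed the edgeR test with 2 libraries per region, while DESeq2 called Man2b1 (0.52; adjusted p = 0.0167, DESeq2) and not Gusb. Over all kept cells, without classes, the same 2 genes were called, Hexa (1.18 ± 0.15 SE; adjusted p = 0.0211, edgeR) and Gla (0.82 ± 0.14 SE; adjusted p = 0.0311, edgeR), 2 of 7 where 4.35% of 20368 genes were called higher in ileum.

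With the mouse as a replicate block, which uses the pairing of regions within an animal, Man2b1 and Gusb passed the test in enterocyte-like cells (adjusted p = 0.0465 for Man2b1 and 0.0436 for Gusb, edgeR), and 4 of the 7 were called, where 8.59% of all genes were called higher in ileum with the block.

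The 3 remaining genes had smaller regional differences. Glb1, which removes terminal β-linked galactose and so acts in the lysosome on the same bond that lactase cuts in the lumen, stood at 856 and 929 CPM in ileum and 694 and 676 CPM in jejunum (log2 fold change 0.27 ± 0.15 SE; adjusted p = 0.285, edgeR). Fuca1, which removes α-linked fucose, stood at 1434 and 1557 CPM against 1224 and 1074 CPM (0.27 ± 0.15 SE; adjusted p = 0.304, edgeR). Neu1, which removes terminal sialic acid, stood at 1465 and 1525 CPM against 1201 and 1248 CPM (0.17 ± 0.15 SE; adjusted p = 0.486, edgeR). For none of the 3 was the fitted change larger than 2 standard errors, and none was called with the replicate block. Over the 7 genes the median log2 fold change was 0.48, beside −0.01 over all genes tested. Without scaling factors the median of all genes moved to 0.11 and that of the 7 to 0.60.

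The jejunal libraries had fewer UMIs per cell and a larger mitochondrial share, and the part of either in these differences was not tested. After all library sums were thinned to the smallest, Hexa had a log2 fold change of 1.05 (adjusted p = 0.0212, edgeR) and Gla of 0.68 (adjusted p = 0.0427, edgeR). In cells with a mitochondrial share under 10% the values were 0.95 for Hexa (adjusted p = 0.0246, edgeR) and 0.70 for Gla (adjusted p = 0.048, edgeR). Summed markers of the class and of other cells were also compared. The 10 enterocyte markers stood at 17754 and 21271 CPM in ileum and 42048 and 43041 CPM in jejunum, with 7 of the 10 higher in both jejunal libraries, and the 8 villus tip genes at 7163 and 7536 against 18045 and 19778 CPM. The 9 goblet markers stood at 198 and 167 CPM in ileum against 79.0 and 68.6 CPM in jejunum. All of these moved with the region, and their part in the differences of the 7 genes was not tested. The 8 macrophage markers, of another cell type rich in lysosomal enzymes, overlapped between regions in their sum (231 and 199 CPM in ileum, 199 and 229 CPM in jejunum), nearly all of it Csf1r (205, 179, 189 and 221 CPM), while C1qa was at 0 in 3 libraries and at 0.011 CPM in ileum 2. Of the 8, 1 was higher in both ileal libraries and 2 in both jejunal ones. Cd68 stood at 22.5 and 15.6 CPM in ileum against 4.32 and 2.94 CPM in jejunum, and Mrc1 at 2.72 and 3.59 against 4.52 and 4.12 CPM. The part of such cells in the differences of the 7 genes was not tested.

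Partner proteins of the 7 enzymes were compared in the same fit. Gm2a, the activator that presents GM2 ganglioside to β-hexosaminidase A, was low in level, at 15.3 and 16.4 CPM in ileum and 2.72 and 2.24 CPM in jejunum, and rose by a log2 fold change of 2.56 ± 0.19 (SE; adjusted p = 0.0152, edgeR). Ctsa, the protective protein that holds Neu1 and Glb1 in a complex, stood at 1457 and 1817 CPM against 1348 and 1314 CPM (0.19 ± 0.18 SE; adjusted p = 0.542, edgeR). Of the 4 partner and activator genes, with Psap, only Gm2a was called.

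Other genes of lysosomal glycan breakdown were counted from fixed lists. Of 15 tested lysosomal glycosidases outside the 7, 4 were called higher in ileum and 0 lower (median log2 fold change 0.36): the β-galactosylceramidase Galc (1.72 ± 0.19 SE), the α-glucosidase Gaa (1.05 ± 0.15 SE), the heparan sulfate glucosaminidase Naglu (1.10 ± 0.19 SE) and Glb1l (1.26 ± 0.23 SE). Of 8 sulfatases of glycans, 4 were called higher and 1 lower (median 0.73). Galns (1.00 ± 0.15 SE) and Arsa (0.76 ± 0.13 SE) were among those that rose, while Arsg, a heparan sulfate sulfatase, was the one that fell, from 102 and 116 CPM in jejunum to 26.6 and 30.4 CPM in ileum (−2.06 ± 0.18 SE; adjusted p = 0.0155, edgeR). Of 6 genes for mannose 6-phosphate targeting, 2 were called higher: the receptor Igf2r (0.67 ± 0.13 SE; adjusted p = 0.0449, edgeR) and the sorting receptor Sort1 (0.77 ± 0.16 SE; adjusted p = 0.049, edgeR). Among all tested genes 2.96% were called higher in jejunum.

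In enterocyte-like cells, genes for the export, use or synthesis of single sugars did not pass the edgeR test. Of 17 such genes, for sialic acid, fucose, galactose and hexosamines, 0 were called by edgeR at an adjusted p of 0.05 in either direction. Of these, 5 had an unadjusted p under 0.05 and DESeq2 called 3, and the median log2 fold change over the 17 was 0.25. The largest difference was that of Nanp, a phosphatase of sialic acid synthesis (−0.69 ± 0.16 SE, adjusted p = 0.0622, edgeR). Next came Fpgt, of the fucose salvage pathway (0.68 ± 0.15 SE, adjusted p = 0.0581, edgeR). In stem/progenitor-like cells 3 of the same 17 were called higher in ileum: Npl, the sialic acid lyase (1.68 ± 0.27 SE), Renbp (1.54 ± 0.22 SE) and the lysosomal sialic acid exporter Slc17a5 (0.75 ± 0.16 SE). Npl stood there at 104 and 66.5 CPM in jejunum, beside 1265 and 925 CPM in enterocyte-like cells. Renbp in jejunum 2 stood at 46.5 beside 531 CPM. These levels lay under the bound for free enterocyte RNA given with the interaction, so that the folds of Npl and Renbp are not read as measured regional folds. Of 7 lysosome regulators in enterocyte-like cells, which include Tfeb and its relatives, 0 were called by edgeR, 0 by DESeq2 and 0 at an unadjusted p under 0.05, and the largest differences were those of Mitf (−0.53 ± 0.27 SE) and Zkscan3 (−0.18 ± 0.15 SE). Of the sialidases outside the lysosome, Neu2 (0.22 ± 0.25 SE) and Neu3 (−1.76 ± 0.53 SE) were not called by edgeR, while DESeq2 called Neu3, at 2.87 to 4.84 CPM for Neu2 and 0.41 to 2.79 CPM for Neu3.

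On the brush border, lactase (Lct), which cuts the main sugar of milk in the lumen, stood at 359 and 908 CPM in the ileal libraries and at 2078 and 2102 CPM in the jejunal ones (log2 fold change −1.82 ± 0.46 SE; adjusted p = 0.0736, edgeR). The ileal libraries of the 2 mice differed from each other more than the jejunal ones, and neither reached the jejunal level. Of the 4 disaccharidases only Mgam, a maltase, was called, higher in ileum (1.38 ± 0.17 SE; adjusted p = 0.022, edgeR). Lactase and the lysosomal β-galactosidase Glb1 thus had CPM on opposite sides between the regions, and neither difference passed the edgeR test, while DESeq2 called that of Lct. In stem/progenitor-like cells Lct was called lower in ileum (−1.82 ± 0.23 SE; adjusted p = 0.00427, edgeR), at 48.9 and 86.5 CPM against 237 and 231 CPM. Lct itself set the bound for free enterocyte RNA, given with the interaction, in ileum 2, at 9.52% of its enterocyte-like CPM. Its level there was thus not above the bound, and this fold is not read as a measured regional fold. Whether free RNA supplied the level was not tested.

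**Figure D2:**
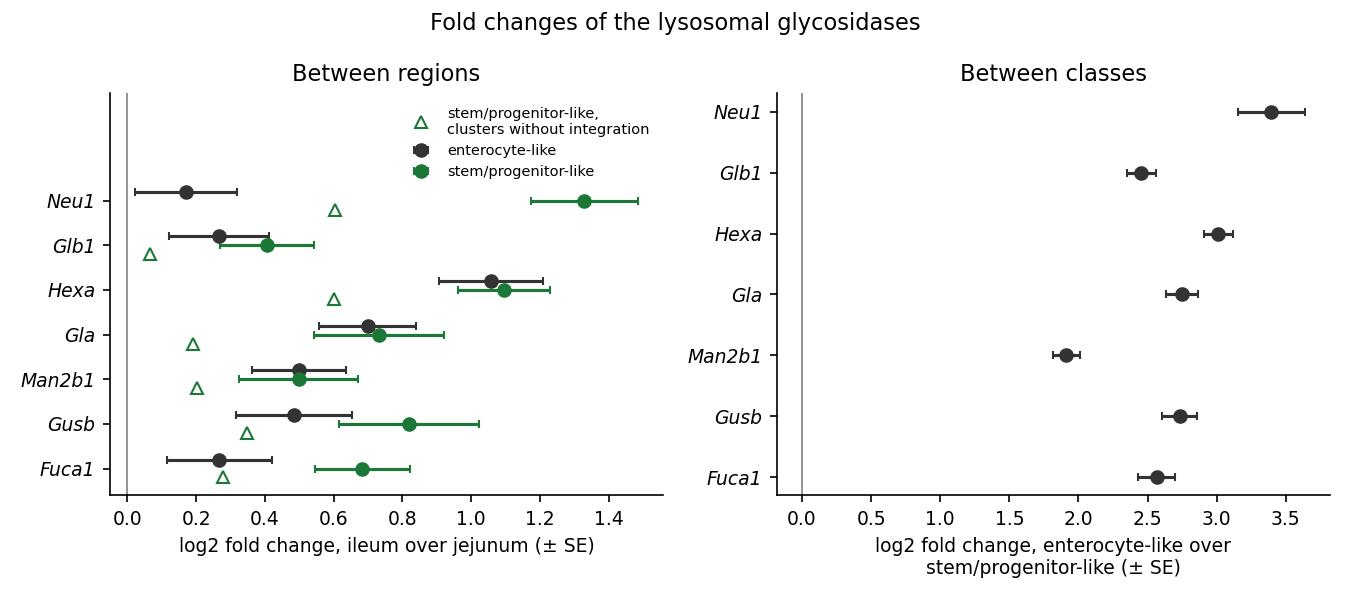
Fitted log2 fold changes with standard errors. Left, ileum over jejunum in enterocyte-like cells (black), in stem/progenitor-like cells (green) and in stem/progenitor-like cells of clusters formed without integration (open triangles, no error drawn); right, enterocyte-like over stem/progenitor-like cells. All points lie above 0, Neu1 is far apart between the 2 classes on the left, and the triangles lie nearer to 0 than the filled green points.

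In stem/progenitor-like cells, the dividing and undifferentiated cells of the crypt, Neu1, Hexa and Fuca1 were called higher in ileum, 3 of 7, where 1.75% of 12781 tested genes were. Neu1 stood at 344 and 262 CPM in ileum and at 118 and 117 CPM in jejunum (log2 fold change 1.33 ± 0.16 SE; adjusted p = 0.00308, edgeR), but its jejunal level lay under the bound for free enterocyte RNA given with the interaction, so that this fold is not read as a measured regional fold. Hexa stood at 184 and 183 CPM against 85.5 and 82.0 CPM (1.10 ± 0.13 SE; adjusted p = 0.0036, edgeR). Fuca1 stood at 448 and 386 CPM against 256 and 250 CPM (0.68 ± 0.14 SE; adjusted p = 0.0335, edgeR), a call lost without ileum replicate 1 (0.59; adjusted p = 0.141, edgeR) and without the highest 6% of doublet scores (0.45; adjusted p = 0.138, edgeR). The ileal libraries were again above the jejunal ones for each of the 7 genes, as for 26.2% of all tested genes. The 4 genes not called had log2 fold changes from 0.41 ± 0.14 (SE) for Glb1 to 0.82 ± 0.20 (SE) for Gusb. With the replicate block all 7 were called, where 6.05% of all genes were called higher in ileum, and DESeq2 called Gusb besides the 3. The class's own markers moved with the region too: the 12 stem/progenitor markers summed to 3398 and 3020 CPM in ileum and 4748 and 4694 CPM in jejunum, with 8 of the 12 higher in both jejunal libraries, and the 10 enterocyte markers to 4179 and 4408 against 7255 and 8007 CPM. Their part in the differences of the 7 genes was not tested. Between the ileal libraries Gusb differed most, at 174 and 108 CPM, beside 77.6 and 78.0 CPM in jejunum.

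These calls in stem/progenitor-like cells rested on how the clusters were formed. In clusters formed without integration of the libraries, 0 of the 7 were called by edgeR at an adjusted p of 0.05, with 3 of them at an unadjusted p under 0.05 and 197 of 12346 genes called in all. Neu1 then stood at 148 and 164 CPM in ileum and 84.6 and 115 CPM in jejunum (log2 fold change 0.60; adjusted p = 0.143, edgeR), Hexa at 101 and 127 against 71.1 and 74.7 CPM (0.60; adjusted p = 0.126, edgeR) and Fuca1 at 257 and 298 against 213 and 232 CPM (0.28; adjusted p = 0.466, edgeR). DESeq2 was not run on those clusters. The 2 clusterings drew the class differently by region: 73.5% and 76.2% of the ileal cells of the class, and 84.7% and 90.2% of the jejunal ones, were stem/progenitor-like in both. The ileal cells that were in the class only with integration had Neu1 at 750 and 515 CPM, Fuca1 at 827 and 590 CPM, and the enterocyte marker Apoa1 at 2520 and 1854 CPM, beside 691 and 816 CPM of Apoa1 in the ileal cells that were in it both ways. The share of such cells moved with the region, and its part in the regional difference cannot be told apart from the clustering.

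Between the classes, all 7 genes were higher in enterocyte-like than in stem/progenitor-like cells, in each of the 4 libraries, with the library as a block. All 7 were called, where 30.4% of 19007 tested genes were called higher in enterocyte-like cells. The fitted log2 difference was largest for Neu1 (3.39 ± 0.24 SE; adjusted p = 1.71e-06, edgeR) and smallest for Man2b1 (1.91 ± 0.10 SE; adjusted p = 2.25e-07, edgeR). Hexa differed by 3.01 ± 0.11 (SE), Gla by 2.75 ± 0.12 (SE), Gusb by 2.73 ± 0.13 (SE), Fuca1 by 2.57 ± 0.13 (SE) and Glb1 by 2.45 ± 0.11 (SE). Man2b1 in stem/progenitor-like cells was at 36.1% to 44.0% of its enterocyte-like CPM, and Hexa at 17.0% to 19.0%. The rank of Neu1 rested on the jejunal libraries: in ileum it kept 23.5% and 17.2% of its enterocyte-like CPM, no less than Hexa (19.0% and 17.0%), and its jejunal level in stem/progenitor-like cells lay under the bound for free RNA given with the interaction. Without scaling factors the median over all genes moved from −0.04 to −0.60, and that of the 7 from 2.73 to 2.18, with all 7 above 0.

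The rest of the lysosomal machinery lay on the same side. Of the 4 partner genes 3 were called higher in enterocyte-like cells, Ctsa (3.29 ± 0.16 SE) and Psap (1.37 ± 0.16 SE) among them, and Gm2a was not (−0.64 ± 0.35 SE; adjusted p = 0.15, edgeR). Among all tested genes 26.2% were called higher in stem/progenitor-like cells. Of 15 other lysosomal glycosidases 13 were called higher and 1 lower, of 8 sulfatases 7 and 0, and of 6 mannose 6-phosphate genes 5 and 1. For the 17 genes of sugar export, use or synthesis the counts were 12 and 1, and for 7 lysosome regulators 6 and 0.

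The region by class interaction asked whether the ileal excess differed between the 2 classes. Neu1 was called, with an ileal excess smaller in enterocyte-like than in stem/progenitor-like cells by 1.16 on the log2 scale (−1.16 ± 0.16 SE; adjusted p = 0.000211, edgeR), where 4.83% of 19007 genes were called in that direction. The other 6 were not called, and ranged from −0.42 ± 0.15 (SE) for Fuca1 (adjusted p = 0.0802, edgeR) to 0.00 ± 0.16 (SE) for Man2b1. In clusters formed without integration the value of Neu1 was −0.33 (adjusted p = 0.249, edgeR) and its call was lost, while Hexa, at 0.60 (adjusted p = 0.0309, edgeR), was called in the opposite direction. Free RNA of enterocytes limits the reading of Neu1 in jejunal stem/progenitor-like cells: it was at 9.83% and 9.39% of its enterocyte-like level there, and the lowest such share among enterocyte genes, which bounds what free RNA could give, was 10.4% and 10.2% in these libraries. At a level under this bound the jejunal Neu1 of this class is not read as expression, and the interaction of Neu1 is not read as an exact size; whether free RNA supplied that level was not tested. The other 6 members were above the bound in every library, and Neu1 was above it in ileum, at 23.5% and 17.2% against 12.4% and 9.52%. A level above the bound can still hold free RNA up to it, as for Hexa, at 17.0% to 19.0%. No level was corrected for this, and the part of free RNA in the regional folds of this class was not tested.

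Enteroendocrine-like cells were too few for a test and are given as levels, in sums over few cells. In these cells (73, 71, 67 and 46 cells in ileum 1, ileum 2, jejunum 1 and jejunum 2), Neu1 stood at 738 and 541 CPM in ileum and 219 and 194 CPM in jejunum, and Fuca1 at 824 and 566 against 227 and 247 CPM. The summed level of the 7 was 2650 and 1898 CPM in ileum and 874 and 861 CPM in jejunum, between those of the stem/progenitor-like class (1522, 1310, 789 and 802 CPM) and the enterocyte-like class (5821, 5974, 4279 and 4013 CPM).

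**Figure D3:**
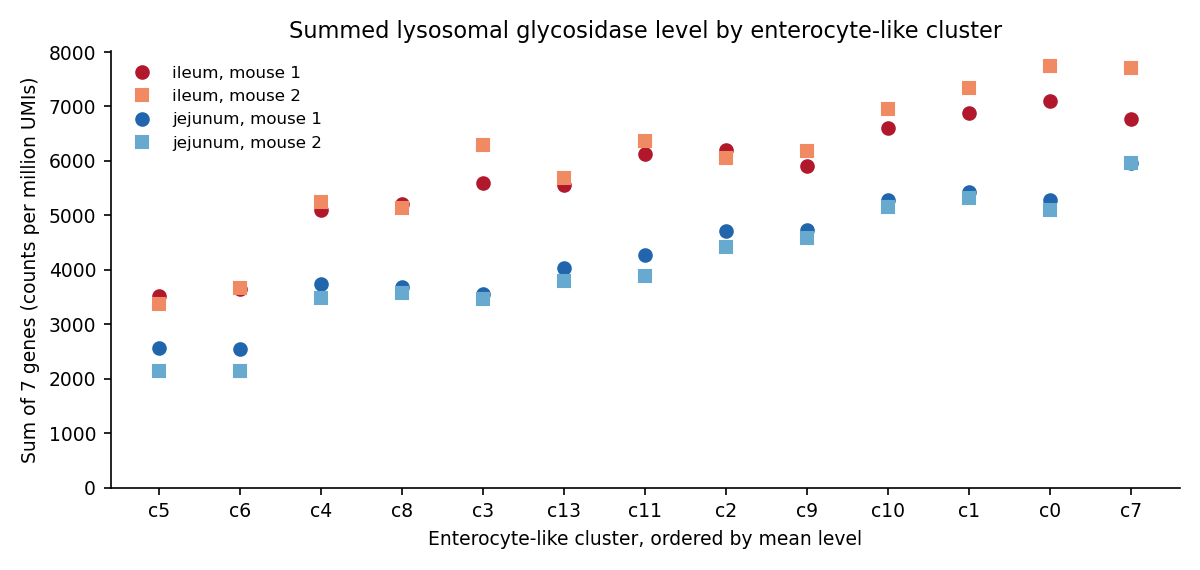
Summed CPM of the 7 genes in each enterocyte-like cluster with at least 30 cells in all 4 libraries, ordered by mean level. Each point is 1 library; in all 13 clusters both ileal points lie above both jejunal ones.

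The enterocyte-like class was made of clusters that differed in level of the 7 genes. There were 13 enterocyte-like clusters with at least 30 cells in every library, formed without the 7 genes or their listed partners. The sum of the 7 was higher in both ileal than in both jejunal libraries in 13 of 13 clusters, with log2 ratios of mean CPM from 0.28 to 0.76. For Hexa, Gla and Man2b1 this held in 13 of 13 clusters, with log2 ratios from 0.89 to 1.34 for Hexa. For Neu1, Glb1 and Fuca1 it held in 12 of 13 and for Gusb in 11 of 13. The clusters share the same 4 libraries, so they repeat the same comparison and are not separate tests. The share of all genes without such overlap was not taken per cluster. Over the whole enterocyte-like class it was 38%.

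Across clusters of 1 library, the sum of the 7 varied by 2.02 and 2.29 times in ileum and 2.34 and 2.79 times in jejunum. The lowest values were in c5 and c6, clusters led by Aldh1a1 among other genes, at 3523 and 3384 CPM for c5 in ileum and 2566 and 2139 CPM in jejunum. The highest were in c0, led by Celf2, Serpina1a and Cd36, in both ileal libraries (7100 and 7743 CPM) and in c7, led by Sprr2a2, Trf and Nt5e, in both jejunal libraries (5961 and 5958 CPM). Both of these clusters had few UMIs (medians of 3207 and 3372) and a high mitochondrial share (medians of 11.0% and 8.78%), as c5 also had (4032 UMIs and 10.7%), and the part of this in their level was not tested. Hexa had its highest level in c1, a cluster led by Enpp3, Sprr2a2 and Ctsl with a median of 14414 UMIs, in all 4 libraries (1286, 1386, 652 and 682 CPM). Its lowest was in c5 in all 4, between 168 and 368 CPM, a span of 3.48 to 4.06 times within a library. Gla varied least in ileum, by 1.54 and 1.48 times, and its highest value was in c2, c1, c3 and c3 in turn.

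Within single enterocyte-like cells the 7 genes were compared at an equal depth of 4000 UMIs, to which 5448, 6357, 4762 and 3533 cells were thinned. At that depth the mean count of Neu1 was 6.0, 6.34, 5.01 and 5.27 UMIs per cell in ileum 1, ileum 2, jejunum 1 and jejunum 2, and that of Gla 0.764, 0.610, 0.397 and 0.374, so that sparse counts lower any correlation with Gla or Man2b1. The median Pearson r of log2(count + 1) over the 21 pairs was 0.121 and 0.115 in ileum and 0.0759 and 0.119 in jejunum. The median r of a member with all other genes of at least 0.1 UMIs per cell lay between −0.002 and 0 in each library. These are descriptions over cells of 1 library, which share its depth, and carry no test.

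**Figure D4:**
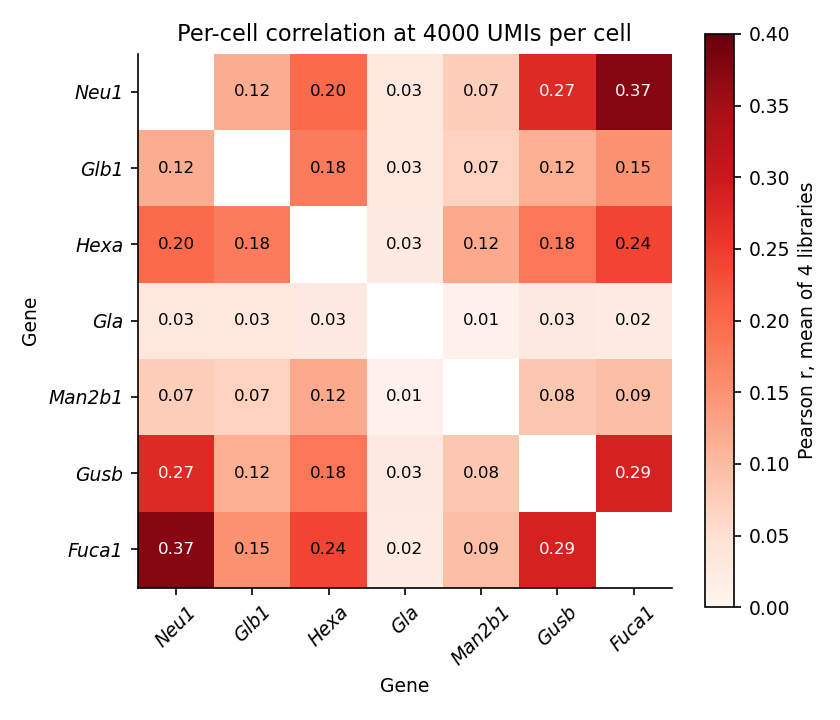
Pearson correlation between pairs of the 7 genes over enterocyte-like cells thinned to 4000 UMIs, as the mean of 4 libraries. Darker cells are higher; the highest values join Neu1, Fuca1, Gusb and Hexa, and the row of Gla is near 0.

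The highest correlation was that of Neu1 and Fuca1 (mean r = 0.37 ± 0.06 SD over 4 libraries, from 0.30 to 0.44). Gusb and Fuca1 (0.29 ± 0.01 SD), Neu1 and Gusb (0.27 ± 0.06 SD), Hexa and Fuca1 (0.24 ± 0.07 SD) and Neu1 and Hexa (0.20 ± 0.02 SD) followed. Glb1 was highest with Hexa (0.18 ± 0.06 SD), and Neu1 and Glb1, which share the protective protein Ctsa, had a mean r of 0.12 ± 0.02 (SD). The 6 pairs with Gla had means from 0.01 to 0.03, which at its counts is no finding. In all 4 libraries 18 of the 21 pairs were above 0, and the 3 others all involved Gla. The correlation fell when cells were compared within clusters, to a median r of 0.0411 as the mean of 4 libraries, from 0.108 over all cells, and at 2000 UMIs it was 0.0591.

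The summed count of the 7 was then set against 5388 genes with at least 0.1 UMIs per cell in every library. The median r over these genes was −0.0073, and 43.9% were above 0. Among the 10 most similar by the fixed rule were Gpx3 (mean r = 0.69 ± 0.02 SD over 4 libraries), the asparaginyl protease Lgmn (0.65 ± 0.04 SD), the cathepsins Ctsb (0.58 ± 0.05 SD) and Ctsl (0.57 ± 0.04 SD), the apolipoprotein Apoa4 (0.55 ± 0.02 SD), Meltf (0.54 ± 0.10 SD), Clca4b (0.54 ± 0.04 SD), Ctsa (0.54 ± 0.06 SD) and the neonatal Fc receptor Fcgrt (0.54 ± 0.08 SD). Abundant genes have less counting noise and so can reach higher values. Each member was compared with the sum of the other 6. Fuca1 (0.44 ± 0.03 SD), Neu1 (0.41 ± 0.07 SD), Gusb (0.35 ± 0.03 SD) and Hexa (0.32 ± 0.06 SD) came highest, then Glb1 (0.21 ± 0.04 SD), Man2b1 (0.14 ± 0.03 SD) and Gla (0.05 ± 0.03 SD).

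Other listed genes spread widely on this measure. Npl, the sialic acid lyase, had a mean r of 0.53 ± 0.07 (SD), the fucosidase Fuca2 0.53 ± 0.03 (SD) and Slc17a5, the exporter of sialic acid from the lysosome, 0.36 ± 0.04 (SD). Lactase had 0.25 ± 0.11 (SD), while the brush border maltase Mgam (−0.37 ± 0.13 SD) and the aminopeptidase Anpep (−0.37 ± 0.10 SD) were below 0 in the mean. Tfeb (−0.04 ± 0.01 SD) and Tfe3 (−0.00 ± 0.01 SD) were near 0 at the RNA level. In enterocyte-like cells Tfeb stood at 45.2 to 61.0 CPM and Tfe3 at 27.5 to 35.0 CPM, both below Gla. At such counts a value near 0 is no finding.

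**Figure D5:**
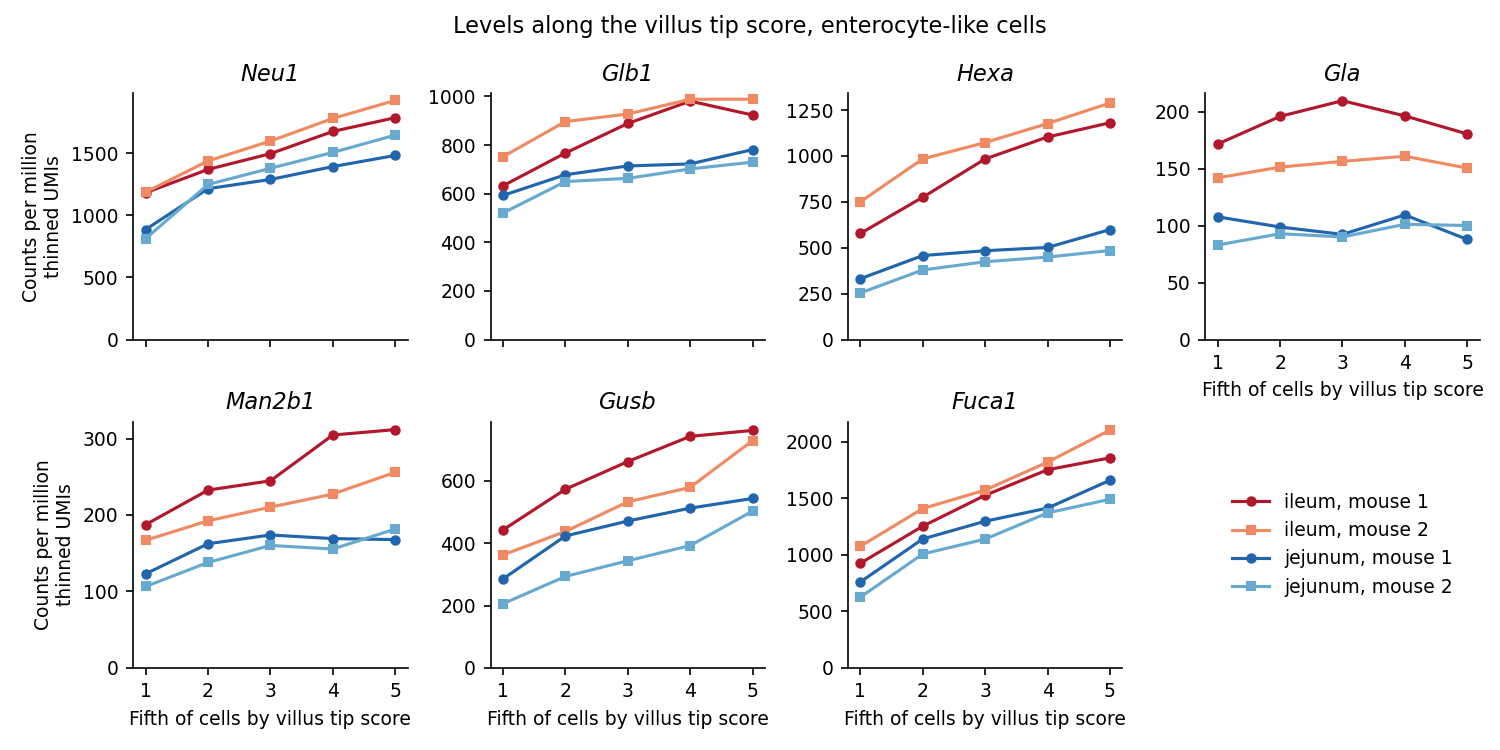
Level of each of the 7 genes in CPM after thinning, in 5 groups of enterocyte-like cells ranked within a library by their villus tip score. Each line is 1 library; the lines of 6 genes rise from the first to the fifth group in all 4 libraries, and that of Gla does not.

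Cells were also ranked within a library by a villus tip score, the summed thinned count of 8 genes known from the tip of the adult villus, and cut into 5 equal groups. The sum of the 7 glycosidases rose from 4119 to 7002 CPM between the lowest and the highest group in ileum 1, from 4435 to 7441 in ileum 2, from 3086 to 5320 in jejunum 1 and from 2607 to 5136 in jejunum 2 (mean log2 ratio 0.82 ± 0.11 SD, n = 4 libraries). Fuca1 (1.09 ± 0.13 SD), Gusb (1.00 ± 0.21 SD), Hexa (0.90 ± 0.11 SD), Neu1 (0.76 ± 0.18 SD), Man2b1 (0.64 ± 0.15 SD) and Glb1 (0.46 ± 0.07 SD) were higher in the highest group in 4 of 4 libraries. Gla was not, with a mean of 0.03 ± 0.24 (SD) and a lower level in jejunum 1.

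The score was mostly 1 gene. Apoa4 gave 82.8% and 85.3% of its counts in ileum and 92.6% and 93.8% in jejunum. Creb3l3 came next, at 7.14% and 7.35% in ileum and 4.13% and 3.62% in jejunum, so that it led the score without Apoa4. The r of Creb3l3 with the summed 7 was 0.24 and 0.11 in ileum and −0.13 and −0.14 in jejunum. Its part in the values without Apoa4 and Neat1 was not tested. With Apoa4 and Neat1 left out, the mean log2 ratio of the sum fell to 0.18, from 0.40 and 0.27 in ileum to −0.01 and 0.07 in jejunum, so that the rise of the sum was seen in the ileal libraries. Single genes differed, with Hexa (0.33 ± 0.20 SD), Man2b1 (0.28 ± 0.17 SD) and Glb1 (0.18 ± 0.11 SD) still higher in 4 of 4 libraries, and Neu1 and Fuca1 higher in both ileal but lower in both jejunal ones.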

How the data were processed

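Kept and called cells, depth and classes are given for each library in the report. According to the labels and the study's methods, the authors sequenced PIP-Seq 3′ libraries and called cells with PIPseeker against GRCm39. The deposited matrices hold raw UMI counts per gene and cell, unnormalized, and 0 sample columns were left out.

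Cells with over 1000 and under 6000 genes and under 20% mitochondrial UMIs were kept, and genes had to be seen in 3 cells. Scrublet (in Scanpy 1.11.5) marked at most 2 cells per library as doublets at an expected 6%, which is too few to have worked, so none were removed and the highest 6% of scores were left out as an alternative. Libraries were integrated and clustered with Seurat 5.3.0 (2000 variable genes, resolution 1, 23 clusters). The listed genes were left out of the variable genes, and clusters were named from marker lists, except that 898 cells of a cluster led by Celf2 and Ccnb1ip1 (151, 175, 261 and 311 cells) stayed unnamed by a threshold set after seeing the data.

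Counts were summed per library and class and tested with edgeR 4.0.16 (quasi-likelihood, TMM, filterByExpr) in R 4.3.3, with Benjamini-Hochberg adjustment over all genes and a threshold of 0.05. DESeq2 1.42.0 was an alternative. Same-numbered libraries came from the same mouse, by titles and design text, and their deviations from the region means correlated (r = 0.293 for the enterocyte-like class, 0.24 for the stem/progenitor-like one). In the regional fits, p-values are judged against the spread between libraries from 2 mice. The class and interaction fits take the library as a block, and their p-values are judged against the spread of class differences over 4 libraries. These 4 libraries come from 2 mice and were treated as independent. Correlations and score groups used cells of at least 4000 UMIs thinned to 4000, and scripts were tested on simulated data. Genes named besides the 7 were, per list, those called between regions in enterocyte-like cells (up to 4 with the lowest adjusted p), otherwise the 2 with the largest change, and always Ctsa, Gm2a and Lct; some genes that the rule takes are not reported here. Csf1r, C1qa, Cd68, Mrc1, Psap, Npl, Renbp, Fuca2, Slc17a5, Anpep, Tfeb, Tfe3 and Apoa1 were named after their values were seen. The members and lists were chosen with earlier results of these data known. Values given as ± SE come from the edgeR fits, and those given as ± SD are the spread over 4 libraries.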

Additional observations from a re-analysis of the deposited data

Results flagged for a closer look

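The ileal excess of 3 genes differed between enterocyte-like and stem/progenitor-like cells by the test of the difference itself (edgeR, adjusted over all genes). Neu1 had an interaction of −1.16 (log2), a smaller ileal excess in enterocyte-like cells, and its levels were 1465 and 1525 against 1201 and 1248 CPM in enterocyte-like cells and 344 and 262 against 118 and 117 CPM in stem/progenitor-like cells. Its jejunal level in stem/progenitor-like cells lay under the bound for free enterocyte RNA, so the interaction is not read as an exact size. Ctsa, the protective protein of Neu1 and Glb1, had −0.61 (adjusted p = 0.0143, edgeR), with 293 and 294 against 159 and 176 CPM in stem/progenitor-like cells. Gm2a had 1.86 in the other direction (adjusted p = 0.000594, edgeR), with 21.8 and 17.7 against 11.1 and 12.7 CPM in stem/progenitor-like cells. The value of Neu1 was −0.33 and not called in clusters formed without integration. The values of Ctsa and Gm2a in those clusters are not given here. The cause was not tested.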

How the results depend on the processing

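Over the regional comparisons, all 322 member values, across settings, were above 0, and the 7 class calls held under all 15 alternatives run. Of 2 members called between regions in enterocyte-like cells, 1 was called without a filter on low counts, 1 without the highest 6% of doublet scores, 4 with the replicate block, and 0 to 1 when 1 library was left out. Of 3 in stem/progenitor-like cells, 5 were called without the filter, 7 with the block, 0 in clusters without integration, and 2 to 5 without 1 library. In all kept cells 2 were called, and 4 with DESeq2, 1 without the filter, 4 with the block and 0 to 2 without 1 library. The count for the interaction was 1, and 1 to 2 without 1 library. The lone library of a region was then assumed to vary like the others.

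Interactions near 0 changed sign. Gla turned from −0.043 to 0.00056 with DESeq2, 0.0013 with RLE factors, 0.048 without scaling factors, 0.167 without high doublet scores, 0.051 at resolution 0.5, 0.615 without integration and 0.0608 with the Celf2-led cluster in the class, and lay between −0.246 and 0.183 without 1 library. Hexa turned from −0.0495 to 0.0393 without scaling factors, 0.244 without high doublet scores, 0.602 without integration and 0.028 with the Celf2-led cluster, and lay between −0.095 and 0.0276 without 1 library. Man2b1 turned from 0.0015 to −0.0579 under 10% mitochondrial share, −0.0325 after thinning and −0.0872 in cells of at least 4000 UMIs, and lay between −0.0577 and 0.0682 without 1 library. Without integration Glb1 was 0.312, Gusb 0.263 and Fuca1 0.115. The cause was not tested.

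Genes called in enterocyte-like cells numbered 1386, and 3113 with DESeq2, 900 without the filter, 3046 with the block and 418 to 895 without ileum 1, jejunum 2 or ileum 2 (669 without jejunum 2). In stem/progenitor-like cells 360 were called, and 941, 1371 with the block, 197 without integration, and 564 or 969 without ileum 2 or jejunum 1. In all kept cells 1523 were called, and 3187 with DESeq2, 382 without the filter, 2688 with the block and 442, 883 and 483 without ileum 1, ileum 2 and jejunum 2 (1635 without jejunum 1). For the interaction 1853 were called, and 326 without ileum replicate 1.

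The median correlation of 0.108 was 0.0591 at 2000 UMIs and 0.0411 within clusters, and 0.103 to 0.119 without 1 library. The log2 ratio along the villus tip score was 0.82, 0.18 without Apoa4 and Neat1, and 0.77 to 0.84 without 1 library. Added after seeing the data were the comparisons within clusters, without scaling factors, in cells of at least 4000 UMIs, with the Celf2-led cluster and without 1 library for the last 2 results. With 2 libraries per region, a difference that missed the threshold is not shown to be absent.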
